A study of Mus musculus with 55 samples.

Results

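The calcium and cyclic AMP route to the transcription factor CREB was followed through 10 genes of cortex that were named by their place in the pathway and not by a measured value, although earlier results of these data were known when they were chosen. They are Adcy8 and Adcy9 (adenylyl cyclases), Camk2b, Camk2d, Camk2g and Camk4 (calmodulin-dependent kinases), Ppp3ca and Ppp3cb (catalytic chains of the phosphatase calcineurin), Creb1 (CREB itself) and Crebbp (its coactivator CBP). They make up 10 of the 799 genes on the nanoString nCounter panel, which counts barcoded probes bound to RNA. All 10 were above 0 in every mouse, and the lowest value, of Creb1 in mouse 734, was 114 normalised counts. The lowest recovered count of any member, in another mouse, was 48.

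In neurons, calcium that enters during activity binds calmodulin, which switches on the calmodulin-dependent kinases and calcineurin and stimulates certain adenylyl cyclases to make cyclic AMP. The nuclear kinase CaMKIV and the cyclic AMP-dependent kinase PKA phosphorylate CREB, which then recruits CBP to cyclic AMP response elements of activity-regulated genes. In cortex this route is known for coupling synaptic activity to the transcription behind plasticity and neuronal survival, and calcineurin opposes several of the kinases' targets.

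RNA was measured in the cortex of 55 male C57BL/6 mice bought as adults of 8 to 10 weeks, with 1 library per mouse. PLX5622, which blocks the CSF1 receptor that microglia need to survive, was mixed at 1200 mg/kg into AIN-76A chow and eaten for 14 days before traumatic brain injury (TBI) and from then on, and the vehicle diet was the same chow without it. The labels do not say how long the naive mice ate their diet, and each comparison with naive mice on PLX5622 and between naive diets depends on it. On PLX5622, 8 mice were taken 1 day, 9 mice 7 days and 7 mice 30 days after TBI, beside 6 that were naive. On vehicle the numbers were 6, 7 and 5 injured mice and 7 naive. Tissue was taken from dissected cortical regions that were picked on neighbouring sections stained for CD11b, so a value describes those regions and not the whole cortex. In bulk tissue of this kind, fewer cells of a type and less RNA per cell cannot be told apart. Mouse 695 is titled as a 7 day mouse but labelled naive, and was kept with the naive vehicle mice.

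Total counts per mouse ran from 176038 to 1208609, with a median of 519047, and their ranges overlapped among all 8 groups. All 8 neuron markers of the panel were above 0 in every group, and their summed level ran from 17535 to 31197 normalised counts over all mice. The microglia markers summed to 181 to 351 normalised counts in naive mice on PLX5622, against 2305 to 2868 in naive mice on vehicle. At 7 days after TBI they summed to 256 to 866 on PLX5622 and 2069 to 6388 on vehicle. At 30 days the sums were 243 to 1988 on PLX5622 (median 959) and 2706 to 4327 on vehicle (median 3036). Values below are normalised counts, fold changes are differences of log2(value + 1) with their standard error, and a gene is called where limma's p, adjusted by Benjamini-Hochberg over 799 genes, is under 0.05. Each gene has its own probe, so levels are not compared between genes.

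Adcy8, a cyclase that calmodulin stimulates and that makes cyclic AMP in response to calcium, was lower 1 day after TBI than in naive cortex. On PLX5622, the lowest, median and highest Adcy8 values were 233, 284 and 382 in naive mice, 163, 237 and 303 at 1 day, 178, 279 and 355 at 7 days and 221, 303 and 362 at 30 days. On vehicle they were 224, 281 and 325 in naive mice, 154, 213 and 281 at 1 day and 192, 236 and 280.0 at 7 days, and the 5 mice at 30 days had 251, 266, 312, 328 and 345. In mice of both diets together, Adcy8 averaged 228 ± 43.2 normalised counts at 1 day and 283 ± 45.3 in naive mice (SD, n = 14 and 13), and 13 of 14 mice at 1 day lay below the naive median of 281. The values at 1 day and in naive mice overlapped on each diet, with 1 of 8 mice on PLX5622 and 0 of 6 on vehicle above the naive median of their own diet. The fitted difference at 1 day, averaged over both diets, was -0.38 ± 0.10 (95% interval -0.58 to -0.18, unadjusted p 0.000414, adjusted p 0.00689). It was -0.32 ± 0.14 on PLX5622 (unadjusted p 0.0229, adjusted p 0.181) and -0.44 ± 0.15 on vehicle (unadjusted p 0.00432, adjusted p 0.0986), so neither diet passed the threshold by itself in limma. In edgeR and DESeq2 the PLX5622 difference passed, with adjusted p of 0.0483 and 0.0435. The difference between these 2 effects was 0.12 ± 0.20 (95% interval -0.29 to 0.52, adjusted p 0.968).

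Later than 1 day after TBI no Adcy8 difference from naive cortex and no step between days passed limma's adjusted threshold. On vehicle all 7 mice at 7 days were below the naive median, and on PLX5622 5 of 9 were. The difference of 7 against 1 day, averaged over both diets, was 0.21 ± 0.09 (unadjusted p 0.0268, adjusted p 0.224). At 30 days the difference from naive cortex was 0.02 ± 0.10, with a 95% interval of -0.19 to 0.23. When all 8 group means were compared at once with the moderated F-test, Adcy8 was the 1 member called (adjusted p 0.0387), beside 12.8% of the 799 genes. Its adjusted p was 0.0884 without a covariate, 0.0666 with the extraction batch as covariate and 0.0501 after centring each mouse on its median, where Camk4 and Adcy9 were called instead. That call was lost when any 1 of 15 mice was left out (684, 697, 698, 703, 705, 707, 708, 710, 716, 719, 726, 735, 736, 740 or 741), and over all 55 omissions its adjusted p ran from 0.0168 to 0.102.

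Camk4 encodes CaMKIV, the nuclear kinase that phosphorylates CREB, and it too was lower at 1 day. On PLX5622, the lowest, median and highest Camk4 values were 2271, 2966 and 4689.9 in naive mice, 1664, 2697 and 3293 at 1 day, 2149, 2861 and 3552 at 7 days and 2445, 2848 and 3418 at 30 days. On vehicle they were 2445, 3398 and 4871 in naive mice, 2063, 2427 and 3183 at 1 day and 2203, 2620.1 and 3455 at 7 days, and the 5 mice at 30 days had 2406, 2547, 2738, 3378 and 3634. Over both diets Camk4 averaged 2577 ± 494 normalised counts at 1 day and 3373 ± 922 in naive mice (SD, n = 14 and 13), and 11 of 14 mice at 1 day were below the naive median of 3025. All 6 vehicle mice at 1 day lay below the naive vehicle median, as did 6 of 8 on PLX5622 for theirs, and the ranges overlapped on both diets. The naive groups held the highest values and the widest spread, from 2271 to 4689.9 on PLX5622 and from 2445 to 4871 on vehicle. These values, means and counts are not corrected for cartridge. The highest naive values, 4612, 4172, 4689.9 and 4871 in mice 705, 706, 736 and 737, came from cartridges 4 and 5. Camk4 averaged 3429 and 3428 there, and 2627, 2718 and 2324 on cartridges 1, 2 and 3. Naive mice 713, 714 and 742 also ran on cartridges 4 and 5, while at 1 day only mice 725, 726, 740 and 741 did. The fitted differences that follow have cartridge as a term. The fitted difference at 1 day over both diets was -0.31 ± 0.08 (95% interval -0.48 to -0.15, unadjusted p 0.000439, adjusted p 0.00699). On PLX5622 it was -0.23 ± 0.11 (unadjusted p 0.0484, adjusted p 0.269) and on vehicle -0.40 ± 0.12 (unadjusted p 0.00197, adjusted p 0.0606). These effects differed between diets by 0.17 ± 0.17, with a 95% interval of -0.17 to 0.50 (adjusted p 0.935).

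At 7 days 7 of 9 mice on PLX5622 and 5 of 7 on vehicle had Camk4 values below the naive median of their diet. The difference from naive cortex at 7 days was -0.22 ± 0.08 over both diets (unadjusted p 0.00703), which missed limma's threshold at an adjusted p of 0.123 and passed it in edgeR (0.0322) and DESeq2 (0.0188) on the recovered counts. On PLX5622 alone it was -0.23 ± 0.11 (unadjusted p 0.0445, adjusted p 0.404). At 30 days the difference was -0.05 ± 0.09 (95% interval -0.23 to 0.12), and 30 against 7 days gave 0.17 ± 0.08 (unadjusted p 0.0459, adjusted p 0.523).

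**Figure D1:**
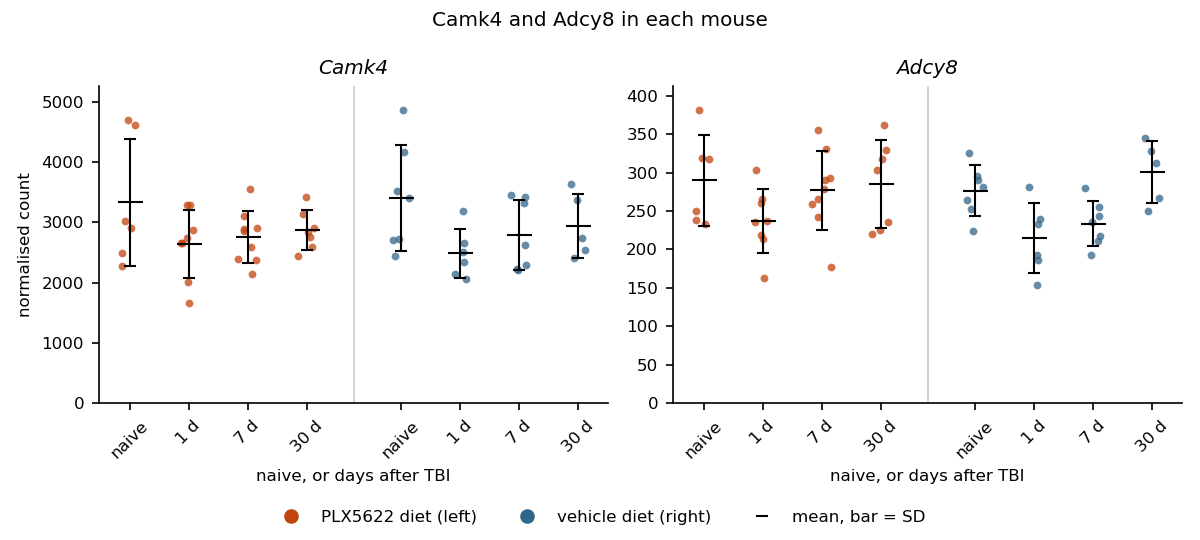
Normalised counts of Camk4 (left) and Adcy8 (right) in each mouse, by diet and by day after TBI, with the mean and SD of each group. At 1 day 11 of 14 mice for Camk4 and 13 of 14 for Adcy8 lie below the median of all naive mice, and the groups overlap. The values shown are not corrected for cartridge.

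Of the 10 genes only Adcy8 and Camk4 passed the test at 1 day, and a difference of the remaining 8 from them was not tested. In the comparison of 1 day after TBI with naive cortex over both diets, 2 of the 10 members were called, Adcy8 and Camk4, both lower, while 11.4% of the 799 genes were called in either direction and 1.75% were called lower. The other 8 members had fold changes between -0.12 (Camk2g) and 0.16 (Adcy9), none with an unadjusted p under 0.05, where 20.9% of all genes had one. Their 95% intervals leave room for sizeable differences, the widest being that of Camk2d, from -0.20 to 0.40. The median over the 10 members was -0.01, beside 0.02 over all genes. edgeR and DESeq2 each called 2 members in this comparison, with adjusted p of 0.000481 and 0.000139 for Camk4 and 0.00256 and 0.00156 for Adcy8. Of the 799 genes these tools called 113 and 127 in it.

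**Figure D2:**
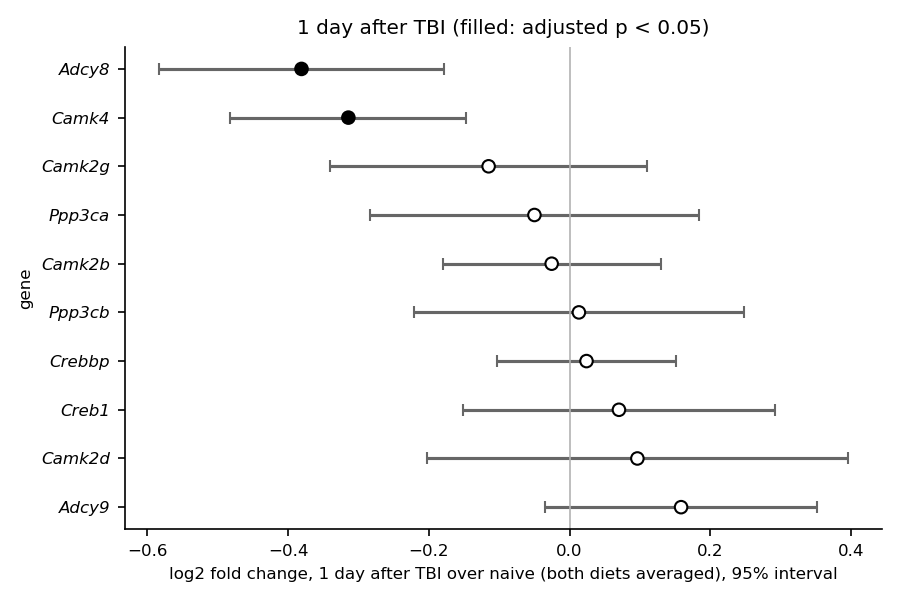
Fitted log2 fold change of each gene at 1 day after TBI over naive cortex, averaged over both diets, with its 95% interval. Adcy8 (-0.38) and Camk4 (-0.31) have intervals below 0 and an adjusted p under 0.05, and the other 8 intervals include 0.

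Both calls held in all 15 alternative settings and in all 55 fits with 1 mouse left out, where Adcy8 ran from -0.42 to -0.34 and Camk4 from -0.35 to -0.28. Within the 3 RNA extraction batches the differences of raw group means at 1 day were -0.28, -0.27 and -0.58 for Adcy8 and -0.15, -0.11 and -0.38 for Camk4. Within cartridges 3, 4 and 5, the nCounter runs that held all 4 groups, they were -0.33, -0.31 and -0.90 for Adcy8 and -0.42, -0.20 and -0.62 for Camk4. Cartridges 1 and 2 each lacked a vehicle group of this comparison. On PLX5622 alone the difference on cartridge 1 was 0.16 for Adcy8 and 0.13 for Camk4, over 4 mice, and on cartridge 2 it was -0.75 and -0.17, over 3 mice.

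Markers of other cells moved at 1 day as well, and their part in these differences was not tested. Of 8 neuron markers 0 were called by limma at 1 day over both diets, 3 had an unadjusted p under 0.05 (Slc17a6 at -0.25, Gad1 at 0.23 and Gad2 at 0.21), and their median difference was -0.05. Gad1 passed at an adjusted p of 0.048 where extraction batch replaced cartridge, with the neuron marker score (0.0155), without the 2 mice of lowest total count (0.0305) and without mouse 693 (0.0414). With the neuron marker score of each mouse as a further covariate, Camk4 was at -0.31 and Adcy8 at -0.38. Of 6 astrocyte markers 3 were called higher, as were 2 of 5 endothelial, 1 of 7 oligodendrocyte and 1 of 13 microglia markers. No marker of these 5 lists was at 0 throughout a group. The summed neuron markers ran over 17535 to 28811 normalised counts at 1 day and 18548 to 31197 in naive mice on PLX5622, and over 19874 to 25775 at 1 day and 20597 to 24859 in naive mice on vehicle. The summed astrocyte markers ran over 16831 to 32231 at 1 day and 15997 to 30364 in naive mice on PLX5622, and over 18394 to 26420.1 at 1 day and 14313 to 20419 in naive mice on vehicle. Both sums overlapped between 1 day and naive mice on each diet. The summed endothelial markers ran over 621 to 1904 at 1 day and 479 to 1020.3 in naive mice on PLX5622, and over 553 to 1389 at 1 day and 557 to 1094 in naive mice on vehicle. The summed oligodendrocyte markers ran over 5180.2 to 12159 at 1 day and 4648 to 13863 in naive mice on PLX5622, and over 8171 to 10576 at 1 day and 6056 to 14779 in naive mice on vehicle. These sums overlapped in the same way. The summed microglia markers ran over 221 to 485 at 1 day and 181 to 351 in naive mice on PLX5622, and over 3131 to 4121 at 1 day and 2305 to 2868 in naive mice on vehicle. The microglia sum at 1 day lay above that of all naive mice on vehicle and overlapped with it on PLX5622.

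Adcy9 encodes a widely expressed adenylyl cyclase that, unlike Adcy8, is not stimulated by calmodulin. On PLX5622, the lowest, median and highest Adcy9 values were 439, 815 and 996 in naive mice, 646, 1032 and 1262 at 1 day, 584, 802 and 1048 at 7 days and 598, 777 and 893 at 30 days. On vehicle they were 453, 769 and 961 in naive mice, 441, 779 and 969.8 at 1 day and 531, 712 and 1071 at 7 days, and the 5 mice at 30 days had 669, 721, 877, 897 and 1086. At 1 day Adcy9 averaged 957 ± 225 normalised counts on PLX5622 and 748 ± 178 on vehicle (SD, n = 8 and 6), and 5 of the 8 PLX5622 mice lay above the vehicle median. The fitted diet difference at 1 day was 0.40 ± 0.13 (95% interval 0.13 to 0.67, unadjusted p 0.00463), which missed limma's threshold at an adjusted p of 0.0973. It passed in edgeR (0.00452) and DESeq2 (0.00245), and over the 15 alternatives the adjusted p ran from 0.00245 to 0.433. Without mouse 696 or 702 or 726 it was 0.0316, 0.0495 and 0.0471 in limma. Within cartridges 2, 3, 4 and 5 the diet difference was 0.66, 0.76, -0.0006 and 0.42, over 2 to 5 mice each.

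On PLX5622 Adcy9 at 1 day differed from naive mice by 0.35 ± 0.13 (unadjusted p 0.0108, adjusted p 0.115), and the adjusted p was 0.0343 without mouse 696 and 0.0373 without mouse 698. On vehicle the same difference was -0.03 ± 0.14, and the effects differed between diets by 0.38 ± 0.19, a difference that did not pass the test (95% interval -0.01 to 0.77, adjusted p 0.853). At 30 days on vehicle Adcy9 stood 0.35 ± 0.14 from naive mice (unadjusted p 0.0204, adjusted p 0.961), and over both diets 0.21 ± 0.10 (unadjusted p 0.0417, adjusted p 0.394). Microglia markers summed to 221 to 485 normalised counts on PLX5622 at 1 day, against 3131 to 4121 on vehicle, and 12 of 13 were called lower. Their part in the Adcy9 values was not tested.

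Crebbp encodes CBP, the acetyltransferase that phosphorylated CREB recruits. On PLX5622, the lowest, median and highest Crebbp values were 1569, 1764 and 2380.0 in naive mice, 1748, 2038 and 2372 at 1 day, 1536, 1822 and 2220.1 at 7 days and 1646, 1846 and 2135 at 30 days. On vehicle they were 1595, 2109 and 2231 in naive mice, 1561, 1871 and 2028 at 1 day and 1476, 1854 and 2218 at 7 days, and the 5 mice at 30 days had 1877, 1954, 2102, 2247 and 2319. At 1 day 7 of 8 mice on PLX5622 were above the vehicle median, and at 30 days 6 of 7 were below it, with overlapping ranges at both days. The fitted diet difference was 0.20 ± 0.09 at 1 day (unadjusted p 0.0314, adjusted p 0.359) and -0.22 ± 0.09 at 30 days (unadjusted p 0.0244, adjusted p 0.387). The diet by injury interaction at 1 day was 0.29 ± 0.13 (unadjusted p 0.0286, adjusted p 0.853), and 30 against 7 days over both diets gave 0.15 ± 0.06 (unadjusted p 0.0228, adjusted p 0.523). None of these passed the adjusted threshold.

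Creb1, the transcription factor at the end of the route, ran from 114 to 339.6 over the 55 mice. Its group means ran over 163 to 207, and 0 of its 19 comparisons reached an unadjusted p under 0.05. At 1 day over both diets its difference from naive cortex was 0.07 ± 0.11, with a 95% interval of -0.15 to 0.29. Mouse 698, naive on PLX5622, had 257 where the other 5 of its group had 145 to 159, and 1 PLX5622 mouse at 1 day had 339.6 normalised counts, the highest of all 55. Both mice ran on cartridge 2, where Creb1 averaged 233, and these values are not corrected for cartridge.

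The 3 CaMKII subunits measured here form mixed holoenzymes, with Camk2b enriched in neurons and Camk2d and Camk2g found in many cell types. Group means ran over 3144 to 3575 normalised counts for Camk2b, 760.4 to 974 for Camk2d and 951 to 1231 for Camk2g. Their values overlapped among all 8 groups. Neighbours in the order of group means lay within 1 SD of each other at 7 of 7 steps for each of the 3 genes. The same held for the other 7 members, the called Adcy8 and Camk4 among them, so these steps do not tell whether a gene changed. The lowest unadjusted p was that of Camk2b in 30 against 7 days over both diets, at 0.18 ± 0.08 (unadjusted p 0.0202, adjusted p 0.523). Camk2d in the 5 vehicle mice at 30 days was 583, 663, 705, 1016 and 1904, the highest being mouse 716.

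Ppp3ca and Ppp3cb encode the alpha and beta catalytic chains of calcineurin, the calcium-activated phosphatase. Ppp3ca had group means of 6668 to 8530.1 normalised counts and Ppp3cb of 1266 to 1563. Vehicle mice at 30 days had the widest Ppp3ca spread of the 8 groups, with 4362, 6871, 7801, 10683 and 12934. The lowest was mouse 716, with the highest total count of the group (1052388), and the highest was mouse 707, with the lowest (388057). Over all mice Ppp3ca fell with the total count (r = -0.705, below), and its part in this spread was not tested. Across the 19 comparisons neither gene had an unadjusted p under 0.05.

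**Figure D3:**
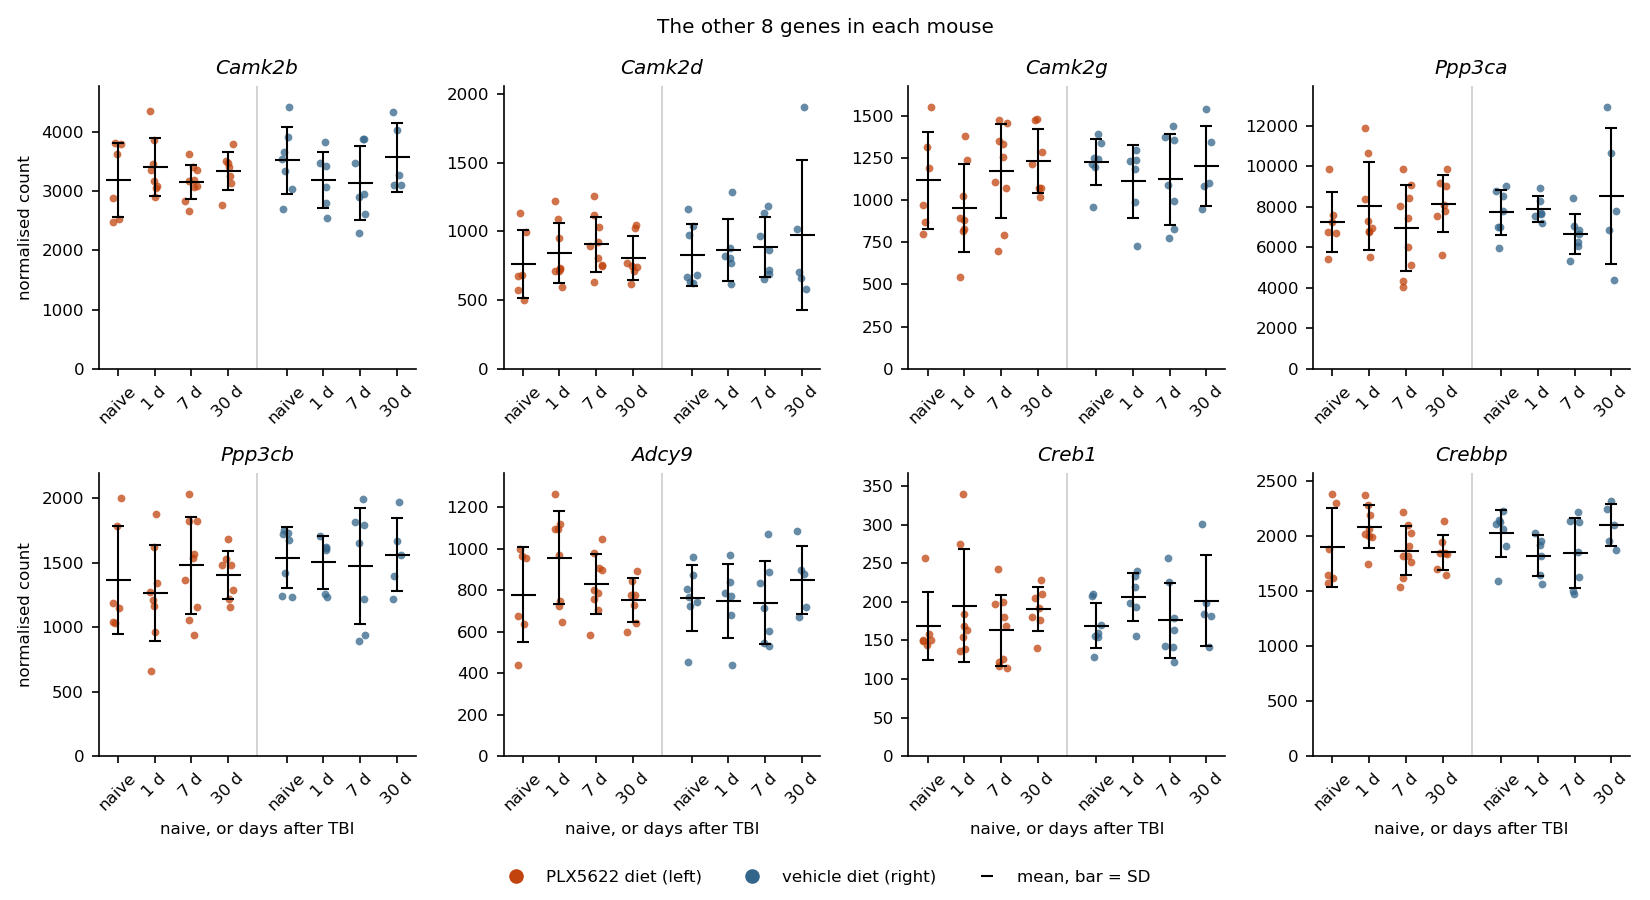
Normalised counts of the other 8 genes in each mouse, by diet and by day after TBI, with the mean and SD of each group. Groups overlap in every panel, and the highest values of 2 groups are marked off by a gap, for Creb1 (257 in a naive PLX5622 mouse) and Camk2d (1904 in a vehicle mouse at 30 days). No value shown is corrected for cartridge.

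Outside the 1 day comparison over both diets, limma called 0 of the 10 members in each of the other 18 comparisons. For injury on PLX5622 the counts at an unadjusted p under 0.05 were 3, 1 and 0 members at 1, 7 and 30 days, where 18.3%, 12% and 11% of all genes had such a p and 7.01%, 1.5% and 2.25% were called. edgeR called 2, 0 and 0 members there and DESeq2 2, 1 and 0, which were Camk4 and Adcy8 at 1 day and Camk4 at 7 days. For injury on vehicle the unadjusted counts were 2, 0 and 1 members, beside 13%, 6.38% and 3.63% of all genes, with 2.25%, 0% and 0% called. There edgeR and DESeq2 each called 1 member at 1 day, which was Camk4, and 0 at 7 and 30 days.

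Between diets the unadjusted counts were 0, 2, 0 and 1 members in naive mice and at 1, 7 and 30 days, where 9.39%, 12.4%, 8.64% and 8.39% of all genes had an unadjusted p under 0.05 and 3.38%, 4.13%, 4.13% and 2.63% were called. edgeR and DESeq2 each called 1 member, Adcy9 at 1 day, and none in the other 3. Of all genes, in the same order, edgeR called 25, 39, 43 and 19 and DESeq2 25, 40, 42 and 19. In naive mice 2 of 10 members had a positive fold change and their median was -0.12, but the median of all 799 genes was -0.14 there and 0.03 after centring each mouse on its own median. Averaged over the 4 injury states the diet difference had 0 members at an unadjusted p under 0.05, beside 16.8% of all genes, 6.63% being called, and 0 by edgeR or DESeq2. These tools called 58 and 56 of all genes there. The interaction of diet and injury had 1, 0 and 0 members at an unadjusted p under 0.05 at 1, 7 and 30 days, beside 5.26%, 4.26% and 3.25% of all genes, with 0.125%, 0% and 0.375% called and 0 members by edgeR or DESeq2. Each of these tools called 1, 0 and 5 of all genes.

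For injury averaged over both diets, 1 member had an unadjusted p under 0.05 at 7 days (13.6% of all genes, 3.75% called) and 1 at 30 days (11.9%, 1.88% called). edgeR and DESeq2 each called Camk4 at 7 days and no member at 30 days. Of all genes they called 52 and 58 at 7 days, and 22 and 25 at 30 days. For 7 against 1 day it was 1 member, Adcy8, beside 16.1% of all genes (6.38% called), and for 30 against 7 days 3 members, Camk2b, Camk4 and Crebbp, beside 9.39% (0.125% called), with 0 by edgeR or DESeq2 in both. Of all genes these tools called 62 and 69 for 7 against 1 day, and 2 each for 30 against 7 days. The comparisons at each day share their naive mice, so their values are not independent. The median of all genes moved by more than 0.1 in 4 comparisons, the diet in naive mice (-0.14), injury at 30 days on PLX5622 (0.11) and the interaction at 1 and 7 days (0.13 and 0.15), and centring each mouse on its median brought these to between -0.01 and 0.05.

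**Figure D4:**
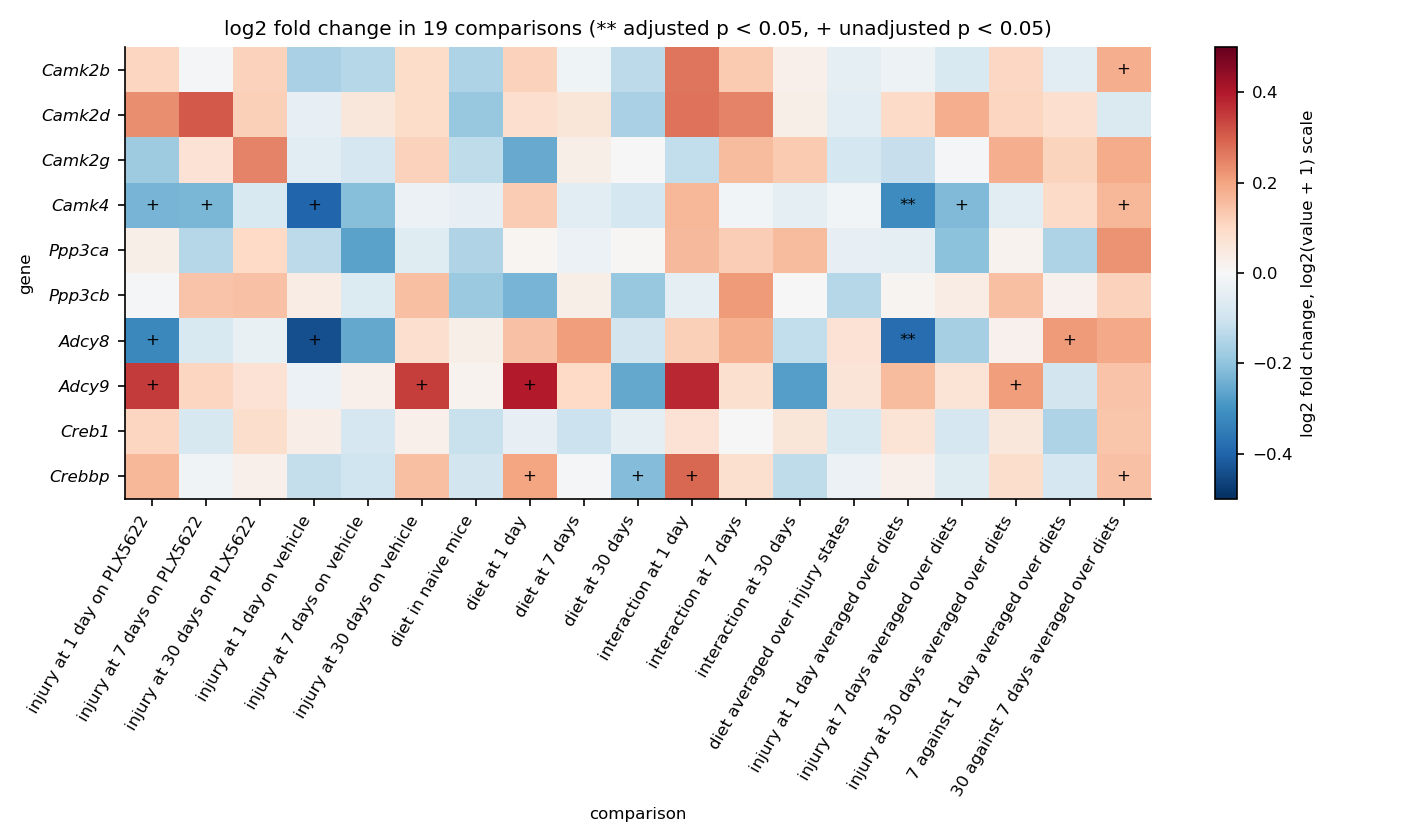
Fitted log2 fold change of each gene (rows) in the 19 comparisons (columns), red where the first named group was higher. The 2 cells with an adjusted p under 0.05 are Camk4 and Adcy8 in injury at 1 day averaged over diets, and those with only an unadjusted p under 0.05 carry a plus sign.

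Around the 10 members the panel measured 51 other genes of the route, listed from textbook knowledge. At 1 day over both diets 0 of the 51 were called higher, 2 lower and 49 not called, where 9.64% of all 799 genes were called higher and 1.75% lower, and their median was -0.04, beside 0.02 over all genes. Calb1, which encodes the calcium buffer calbindin, was at 983, 1355 and 1946 normalised counts at 1 day (lowest, median, highest), against 1358, 1648 and 2295 in naive mice, a difference of -0.36 ± 0.10 (adjusted p 0.0101). Calb1 was then higher at 7 than at 1 day by 0.35 ± 0.09 (adjusted p 0.0122). Egr1, an immediate early gene and CREB target, was at 361, 1134 and 2409.7 at 1 day, against 802, 2110.4 and 4523 in naive mice, a difference of -0.87 ± 0.26 (adjusted p 0.0171). On vehicle alone that Egr1 difference was -1.38 ± 0.38 (adjusted p 0.0385).

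Of the 10 CREB target genes measured, 1 was called at 1 day over both diets, close to the 11.4% of all genes, 2 had a positive fold change and the list's median was -0.50, beside 0.02 over all genes. At 30 days, where 1.88% of all genes were called, 1 of the 10 was called, Nr4a2, an orphan nuclear receptor gene, at -0.86 ± 0.23 (adjusted p 0.0313), and the list's median was -0.51. Between 7 and 1 day the neurotrophin gene Bdnf was lower at 7 days, at -0.61 ± 0.18 (adjusted p 0.0244), and Atf4, a relative of CREB that acts in the stress response, at -0.25 ± 0.07 (adjusted p 0.0218). Some of these calls were lost in alternatives chosen after seeing the data. Egr1 over both diets had an adjusted p of 0.0563 without a covariate and 0.0618 with the extraction batch, and on vehicle 0.188, 0.146 and, with robust eBayes, 0.0524, with a loss also without any 1 of mice 691, 695, 697, 706, 714 or 720 (0.052 to 0.114). Nr4a2 had 0.0747 without a covariate and lost its call without any 1 of mice 684, 690, 700, 705, 707, 713, 715, 727, 732 or 742 (0.05 to 0.165). Bdnf had 0.0577 without a covariate, 0.0946 with the neuron marker score, and 0.0548 and 0.15 without mouse 717 or 741. Atf4 had 0.0779 after centring on the sample median, 0.0906 with the neuron marker score, and 0.0912 and 0.0818 without mouse 726 or 741. Calb1 kept its call at 1 day in all 15 alternatives and all 55 fits with 1 mouse left out, and for 7 against 1 day had 0.0552 and 0.0521 without mouse 726 or 741. None of the 17 calcium entry and calmodulin genes other than Calb1, and none of the 11 cyclic AMP genes, 8 genes of the ERK arm or the calcineurin chain Ppp3cc, was called in any of the 19 comparisons.

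The cartridge carried a large share of the variance of several members. It held 48.8% of the variance of log2 Camk4, 46.0% of Creb1 and 43.5% of Adcy9, but 6.34% of Adcy8, where the median of all genes was 18.7%. After the cartridge, the 8 groups held 33.7% for Adcy8, 21.7% for Crebbp, 16.8% for Adcy9 and 16.5% for Camk4, beside a median of 13.2%. Camk4 averaged from 2324 normalised counts on cartridge 3 to 3429 on cartridge 4, and Creb1 from 151 on cartridge 5 to 233 on cartridge 2. The cartridge was a term of every fit above, except those without a covariate or with the extraction batch in its place.

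Some members also moved with the total count of a mouse after group and cartridge means were removed. Over 55 mice Ppp3ca had r = -0.705 (rho -0.788) and Creb1 r = -0.604 (rho -0.716), while Ppp3cb had r = 0.620 (rho 0.502) and Camk2g r = 0.570 (rho 0.467). The permutation p of these 4 r values, adjusted over the 10 members, was 3.33e-05 for the first 3 and 5e-05 for Camk2g, where 1e-05 is the smallest raw p that the permutations can give. Without the 2 mice whose residual total count lay farthest from its median, r was -0.761, -0.747, 0.502 and 0.435. Within the 3 extraction batches Ppp3ca had -0.592, -0.789 and -0.738, and Creb1 had -0.317, -0.777 and -0.769. Among all 799 genes 28 had an r as low as that of Ppp3ca, 54 as low as Creb1, 30 as high as Ppp3cb and 50 as high as Camk2g.

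**Figure D5:**
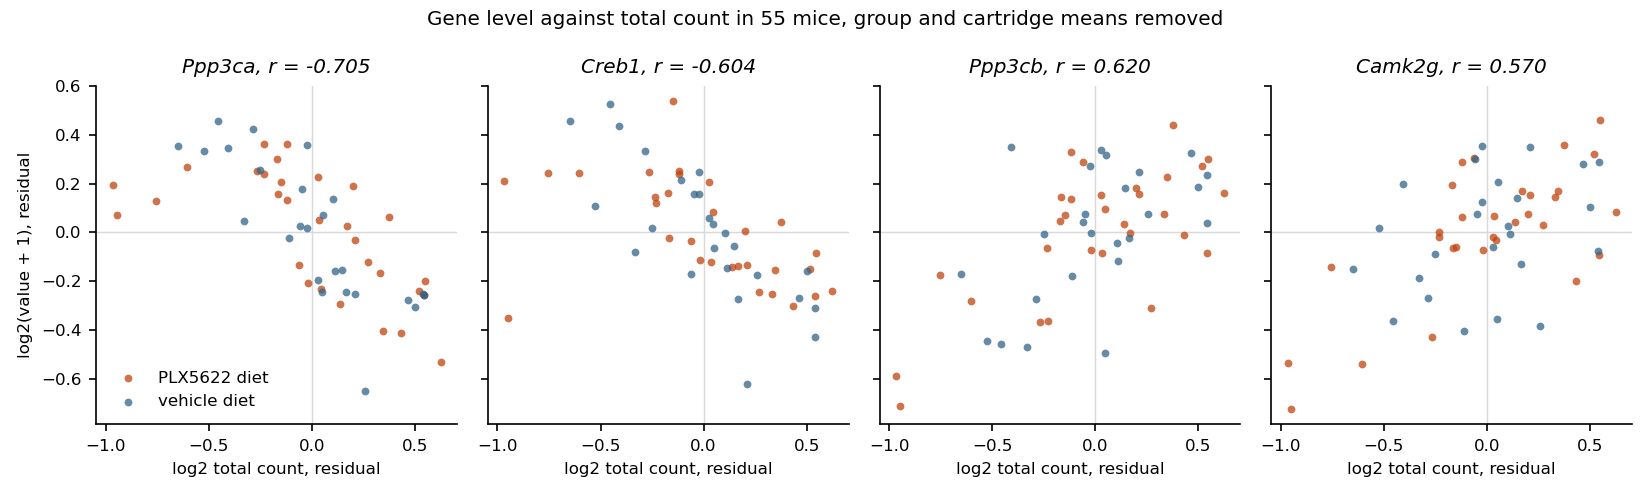
Residual log2 level of Ppp3ca, Creb1, Ppp3cb and Camk2g against the residual log2 total count of each of 55 mice, coloured by diet, with group and cartridge means removed. Ppp3ca and Creb1 fall with the total count (r -0.705 and -0.604), and Ppp3cb and Camk2g rise with it (0.620 and 0.570).

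In weaker relations Crebbp had r = 0.368 (rho 0.335, adjusted permutation p 0.0119) and Adcy8 r = -0.309 (rho -0.225, adjusted p 0.0373), and the r of Adcy8 was -0.158 without the same 2 mice. Of all 799 genes, 143 had an r as high as that of Crebbp and 210 as low as that of Adcy8. By rho Adcy8 did not pass (adjusted permutation p 0.111), while Camk2b and Camk2d did (0.0321 and 0.0241). Camk4 had r = 0.069 (rho -0.024, permutation p 0.617). With the total count as a further covariate the 1 day differences were -0.31 for Camk4 and -0.38 for Adcy8, as without it. The labels give no pre-amplification cycle number for a mouse, so its part in these relations was not tested.

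Of 45 pairs, 34 had a positive residual r over the 55 mice, and 17 had a permutation p under 0.05 after adjustment over the 45, of which 15 were positive. The share of all gene pairs of the panel that would pass was not calculated. By rho not all of the 17 passed. The negative pairs among them, Camk2d with Camk2g and Camk2g with Adcy8, had an adjusted permutation p of rho of 0.0592 and 0.07. The highest were Camk2g with Ppp3cb (r 0.792, rho 0.776), Ppp3ca with Creb1 (0.740, rho 0.783), Camk2b with Adcy9 (0.723, rho 0.705) and Camk2b with Crebbp (0.602, rho 0.523), each with an adjusted p of 0.000112. Within extraction batches the r of the first pair was 0.952, 0.719 and 0.733, and that of the second 0.629, 0.817 and 0.796. Without the 2 mice farthest from the median residual of the pair's first named gene, these r values were 0.756 and 0.755. Camk2g and Ppp3cb both rose with the total count (r 0.570 and 0.620), and Ppp3ca and Creb1 both fell with it (-0.705 and -0.604). The part of the total count in these pairs was not tested. The calcineurin chains Ppp3ca and Ppp3cb had r = -0.293 (rho -0.267, adjusted p 0.0668), and the pair called at 1 day, Camk4 and Adcy8, had r = 0.222 (rho 0.272, adjusted p 0.165).

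Against the neuron marker score of each mouse, 8 of 10 members had a positive residual r with an adjusted permutation p under 0.05. Of all 799 genes, 265 had an r as high as that of Creb1 (0.280), the lowest of the 8. By rho only Camk2b, Camk2g and Ppp3cb passed (adjusted permutation p 0.0135, 0.0007 and 0.00675). Ppp3ca, Adcy9, Camk4, Creb1 and Crebbp did not (0.0664, 0.0739, 0.0877, 0.0929 and 0.145). The r was below 0 for Camk4 and Creb1 in extraction batch 2 and for Adcy9 in batch 1. The strongest was Camk2g, at r = 0.634 (rho 0.525, adjusted p 0.0001), followed by Ppp3cb at 0.450 (rho 0.422, adjusted p 0.0023). Adcy8, at r = -0.099 (rho -0.054, adjusted p 0.471), and Camk2d, at -0.235 (rho -0.156, adjusted p 0.0931), did not pass. The panel as a whole leaned the same way, since 580 of 799 genes had a positive r with the score and the median was 0.16. The score and the members come from the same libraries and share their scaling.

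As a description, the panel genes whose levels ran most like each member over the 55 mice after removal of cartridge means were these, by Pearson r. Adcy8 was nearest to Mfge8 (0.705) and AI464131 (0.588), and Adcy9 to Ryr2 (0.890) and Dagla (0.810). Camk4 was nearest to Cacna1a (0.779) and Cd34 (0.743). Camk2b was nearest to Grin1 (0.882) and Pgam1 (0.844), Camk2d to Mapk3 (0.804) and Hap1 (0.749), and Camk2g to Cdk5r1 (0.85) and Dlgap1 (0.844). Ppp3ca was nearest to Ppt1 (0.851) and Ddx23 (0.840), and Ppp3cb to Dlgap1 (0.956) and B4galt6 (0.945). Creb1 was nearest to Dld (0.808) and Cul2 (0.803), and Crebbp to Cacna1b (0.759) and Mta1 (0.754). None of the 20 was itself a member, and Adcy8 had the lowest r values of the 10.

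The route ends at the cyclic AMP response element, so the promoters of the members were searched for it, as a description of sequence alone. RefSeq promoters (GRCm38.p6, 250 bases before to 50 after a start that the table lists for the gene) were at hand for 6 of the 10, Adcy9, Camk2b, Camk2d, Ppp3cb, Creb1 and Crebbp. The listed start is the outer end of the RefSeq gene record for Ppp3cb and lies 10 bases inside it for Creb1, 553 for Crebbp, 609 for Camk2b, 1464 for Camk2d and 16738 for Adcy9, so other starts of these genes were not searched. The full element TGACGTCA, which reads the same on both strands, was in 0 of the 6 windows and in 1.79% of 32851 promoters of the table. The element's first 5 letters, TGACG on either strand (CGTCA on the other), were in 2 of 6 and in 20.8% of all promoters. The members' promoters had a median of 73.8% G and C, against 52.7% in the table. The 2 matches are shown in 30 base windows on the gene's strand, with the match in capitals. Other partial likenesses to the element were not searched. The match of Adcy9 lies 24 to 20 bases before its listed start, inside the gene record, and that of Ppp3cb straddles its own. A match says nothing of whether CREB binds there.
Adcy9, chr16:4420505-4420534, minus strand: cggacccggcggTGACGtgcgcgggccgcg
Ppp3cb, chr14:20546557-20546586, minus strand: acgcgcgatgcaTGACGgtcttagcccctc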

How the data were processed

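Gene expression in cortex of 55 mice was read on a nanoString nCounter panel of 799 genes. The deposited values are a signal on a linear scale, counts divided by 1 size factor per mouse by the authors. The submitters' processing notes list DESeq2 without a version, and the labels state no background step. Per the labels' protocols, RNA of dissected regions was pre-amplified, with cycles set from Gapdh and Actb. Whole counts were recovered for 100% of values (tolerance 0.02). RefSeq held 792 symbols as current and 7 as synonyms. Every pair of mice within a group differed by more than counting noise (chi-square over degrees of freedom at least 5.2).

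The main test was limma 3.58.1 (R 4.3.3), fitted by lmFit to log2(value + 1) with trended eBayes, on 8 group means and 5 cartridges, all 55 mice in 1 fit, two-sided, adjusted by Benjamini-Hochberg over 799 genes per comparison, with no filter. That scale understates changes of low genes. Tests on counts were edgeR 4.0.16 and DESeq2 1.42.0 on the recovered counts. "Averaged over diets" weights both diets equally. Intervals are 95% of the fit. Correlations used residuals of the fit and 100000 permutations. The permutations made no allowance for the group and cartridge means removed, so their p values are somewhat too small. Relations close to the threshold are the most affected. The members, gene lists and rule for named values (unadjusted p under 0.05, and all members' levels) were chosen with earlier results of these data known. The scripts were tested on simulated data. Groups came from the labels, mouse numbers link no mice across groups, and each mouse is 1 replicate. Alternatives changed the covariate, centring, pseudocount (10), low mean filter (20), eBayes options, groups fitted and tool, and left out each mouse in turn. The neuron score, the total count and leaving out the 2 mice of lowest total count, and all alternatives for pathway genes outside the members, were chosen after seeing the data.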

Additional observations from a re-analysis of the deposited data

Results flagged for a closer look

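Creb1 in the naive PLX5622 group held the 1 value past Dixon's critical value, among 80 groups of a member and a condition examined. Mouse 698 had 257.4 normalised counts, against 144.5 to 158.7 in the other 5 mice, a gap of 0.874 of the group's range where Dixon's critical value is 0.625. Chance alone takes about 1 of 20 groups past the critical value. The values examined were not corrected for cartridge. Mouse 698 was the only mouse of its group on cartridge 2, where Creb1 averaged 233, the highest of the 5 cartridges. Its total count of 230246 was the lowest of its group, and Creb1 fell with the total count (r = -0.604). The part of cartridge and total count in this value was not tested.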

How the results depend on the processing

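The calls of Camk4 and Adcy8 at 1 day over both diets kept their sign and passed the threshold in all 15 alternatives, with adjusted p from 0.000139 to 0.0445 for Camk4 and from 0.00156 to 0.0243 for Adcy8, and in all 55 fits with 1 mouse left out. Of the 19 fold changes of members with an unadjusted p under 0.05, none changed sign in these settings. Of the others given with a value, 5 changed sign, none of them called in any setting. Adcy8 at 30 days over both diets was -0.0818 after centring on the sample median, -0.0021 on reference genes, -0.0327 in edgeR and -0.0563 in DESeq2, and ran from -0.0392 to 0.0614 with 1 mouse left out. The Adcy8 interaction at 1 day was -0.0049 in edgeR and -0.0205 in DESeq2. Adcy9 on vehicle at 1 day was 0.10 with the extraction batch and 0.0737 with the compared groups alone, and from -0.1085 to 0.0295 with 1 mouse left out. With 1 mouse left out Camk4 at 30 days ran from -0.0935 to 0.0179 (above 0 without 716) and Creb1 at 1 day from -0.0063 to 0.12 (below 0 without 726). Counts of members called moved as follows, from 0 unless said. On PLX5622 at 1 day edgeR and DESeq2 called 2, and at 7 days DESeq2 called 1. On vehicle at 1 day the count was 1 with centring on reference genes, with the compared groups alone (Adcy8), in edgeR, in DESeq2 and without the 2 mice of lowest total count. Between diets at 1 day it was 2 after centring on the sample median (Adcy9 and Crebbp) and 1 with reference genes, edgeR or DESeq2. At 7 days over both diets edgeR and DESeq2 called 1. The F-test's count of 1 became 0 without a covariate or with the extraction batch as covariate, and 2 (Camk4 and Adcy9) after centring on the sample median. The cause was not tested.

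With 1 mouse left out, counts ran from 0 to 1 on PLX5622 at 1 day (1 without 696 or 698), from 0 to 1 on vehicle at 1 day (Camk4 without 702, 704 or 719, adjusted p 0.0433 to 0.0477), from 0 to 1 between diets at 1 day (1 without 696, 702 or 726) and from 0 to 2 in the F-test (2 without 690, 696, 713 or 733; without 716 Camk4 was called and Adcy8 was not). No paired analysis was possible because the groups share no replicate numbers. Group sizes of 5 to 9 mice limit what these comparisons can resolve. Total counts differ widely between mice, and the residuals of 6 of 10 members correlate with them by r, most strongly Ppp3ca, Ppp3cb, Creb1 and Camk2g. Many other genes of the panel do so as strongly as the weaker members. Of all 799 genes, 210 had an r as low as Adcy8 and 143 as high as Crebbp.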
